A study of Mus musculus with 3 samples.

Results

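Gdnf, its receptor Ret and 5 genes that act with them (Gfra1, Gfra2, Slit2, Robo2 and Grem1) were compared between Fgfrl1-/- and wildtype kidney rudiments of the mouse. A probe was counted as a member if it was not a control spot and the array's annotation gave it the name of one of these 7 genes, out of 27745 names in all. This yielded 18 of the 41174 probes on the array, namely 1 for Gdnf, 1 for Ret, 2 for Gfra1, 1 for Gfra2, 6 for Slit2, 6 for Robo2 and 1 for Grem1. This choice of probes used gene names and no measured value, but the 7 genes were named with earlier results of these data known.

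Gdnf (glial cell line derived neurotrophic factor) is secreted by the metanephric mesenchyme and drives outgrowth and branching of the ureteric bud. It binds the co-receptor Gfra1, and the complex activates the receptor tyrosine kinase Ret at the ureteric tips. The domain of Gdnf is restricted by Slit2, a secreted ligand, and its receptor Robo2, while Grem1, an antagonist of Bmp proteins, keeps Bmp signals from blocking the bud. Gfra2 is the preferred co-receptor of the related ligand neurturin.

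RNA was obtained from kidney rudiments of C57BL/6 mice at E12.5, the stage at which nephron formation begins. The knock-out embryos lacked Fgfrl1 on both alleles, a fibroblast growth factor receptor-like protein without a tyrosine kinase domain, and their wildtype littermates served as controls. Each of the 3 arrays compared 1 pool of Fgfrl1-/- rudiments, labelled with Cy3 (green), with 1 pool of wildtype rudiments, labelled with Cy5 (red), and a pool held 6 to 9 rudiments. The dyes were swapped on 0 arrays, so dye and genotype cannot be told apart in any value given here. Fgfrl1 is missing from the whole embryo in this model, and a pool held all cell types of the rudiment.

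A log2 ratio below stands for Fgfrl1-/- over wildtype after background correction and loess normalization, and a log2 level is the normalized log2 signal of 1 pool. A probe is called well above background where the scanner software flagged it so. Both channels of all 3 arrays met this for 22824 of all probes and for 10 of the 18 member probes, 1 of Gdnf, 2 of Gfra1, 2 of Slit2 and 5 of Robo2. The only Ret, Gfra2 and Grem1 probes were not among them. Log2 ratios were tested against 0 with limma over all probes, and a probe passed the test at a Benjamini-Hochberg adjusted p below 0.05.

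The probes are 60 bases long. The middle stretch of the probes on which the ligand and receptor values rest, bases 16 to 45 counted from the first base listed, is shown here in lower case so that each value can be tied to the transcript region it samples.
Gdnf A_51_P147777: cagatagatctaaaataataaatgaccaat
Ret A_51_P324191: atgcaaatgatagtgtatatgctaactgga
Gfra1 A_52_P398998: gtttggattcaaggtcaccaagtatctcct
Gfra1 A_52_P311022: tctgtctttctgataatgattacggaaagg
Slit2 A_51_P496569: ttgcagaaggtttgcaaagtctcagagtag
Slit2 A_51_P496562: agtgtgtgagtgagactgagaggtagatga
On mm8, the build used by the files, the Gdnf probe lies at chr15:7784183-7784242 on the plus strand and the Ret probe at chr6:118119504-118119563 on the minus strand. The Gfra1 probes lie at chr19:58290364-58290423 and at chr19:58291766-58292532 on the minus strand. The second of these matches a span of 767 bases with 60 bases, which places it across a splice junction. The Slit2 probes lie close together at chr5:48593511-48593570 and chr5:48592885-48592944 on the plus strand. No gene annotation of mm8 was used here, so exons and untranslated regions are not assigned. The GC content of the Gdnf and Ret probes was similar, with 40.0% and 43.3%.

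The ligand Gdnf was lower in Fgfrl1-/- rudiments. Its log2 level was 7.72, 8.02 and 7.94 in the Fgfrl1-/- pools, given here and below in the order of arrays 1, 2 and 3, and 8.74, 8.68 and 8.75 in the controls. All 3 knock-out pools lay below all 3 wildtype pools, as was the case for 7.22% of all probes. The log2 ratios were -1.02, -0.66 and -0.81, with a mean of -0.83 ± 0.18 (SD, n = 3), which is a 1.78-fold reduction (limma, adjusted p = 0.0421). Gdnf was the only one of the 18 member probes that passed the test downwards, while 0 passed it upwards. Of all 41174 probes, 0.398% passed the test downwards and 0.289% upwards, or 164 and 119 probes. This split was 91 and 2 with median centring in place of loess, and 57 and 19 with quantile normalization. At an unadjusted p below 0.05, 3 member probes were lower and 0 higher, against 8.20% and 7.69% of all probes. In RNA from whole rudiments, a smaller number of Gdnf-expressing cells and less Gdnf RNA per cell cannot be told apart.

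Raw signals of the 2 dyes are not on the same scale, so the Gdnf spot was read by its rank within each channel. The array-wide median signal was 97, 60 and 68 in the knock-out channel and 99.5, 113 and 107.5 in the wildtype channel. On arrays 1, 2 and 3, the Gdnf spot had a raw median signal of 192, 151 and 199 in the knock-out channel and of 366, 537 and 517 in the wildtype channel. Within the knock-out channel it was brighter than 60.6%, 64.8% and 64.5% of all probes, and within the wildtype channel it was brighter than 72.4%, 70.9% and 71.2%. The Gdnf spot thus ranked lower in the knock-out channel on every array. The call depended on the processing. The log2 ratio of Gdnf was negative under all 16 alternative settings, between -1.0 and -0.73, but its adjusted p was below 0.05 in 7 of them. Without array 2 the mean was -0.92 (limma, adjusted p = 0.295), and without array 3 it was -0.84 (limma, adjusted p = 0.471).

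**Figure D1:**
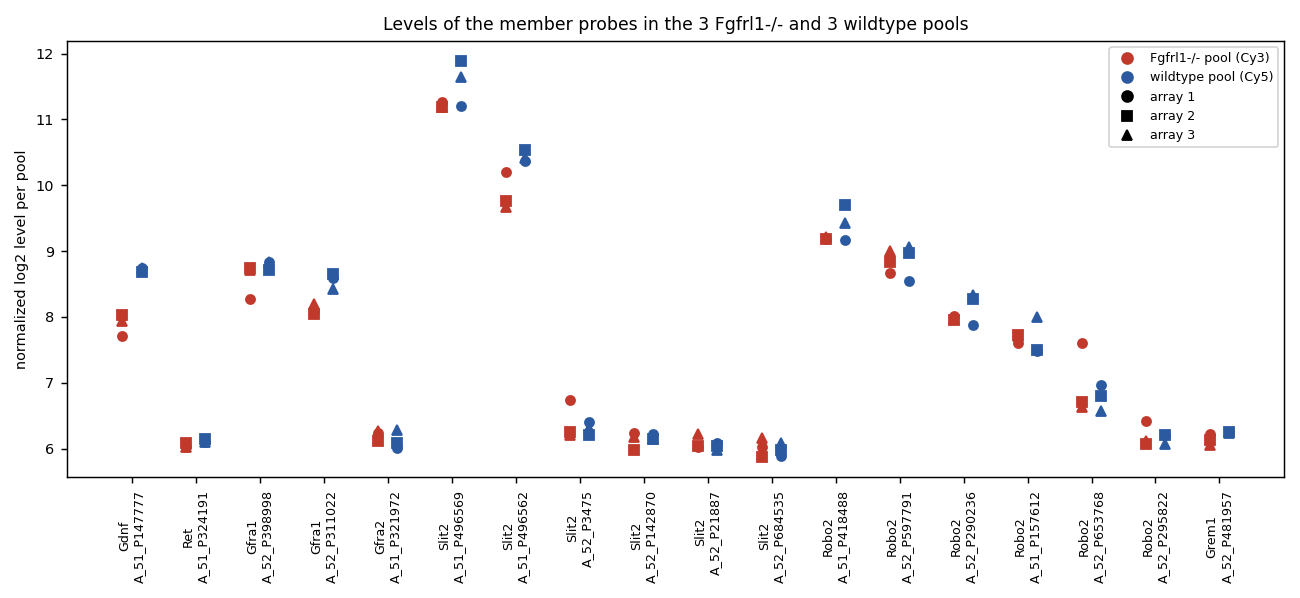
Normalized log2 level (vertical axis) of each of the 18 member probes (horizontal axis) in the 3 Fgfrl1-/- pools (red) and the 3 wildtype pools (blue), with 1 symbol per array. The Gdnf pools separate, with 7.72 to 8.02 against 8.68 to 8.75, whereas Ret, Gfra2, Grem1 and 4 of the Slit2 probes lie near the bottom of the scale in both groups.

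The receptor Ret gave no usable level in either genotype. Its probe was printed as 10 spots on each array. The median raw signal of these spots in the knock-out channel was 27.5, 34.5 and 31.0, and the negative control spots of the same channel had medians of 20.5, 33.0 and 28.0. In the wildtype channel, the Ret spots had median signals of 64.5, 58.8 and 58.2, and the negative control spots 57.0, 49.5 and 49.0. The 95th percentile of the negative control spots was 23.2, 39 and 33.4 in the knock-out channel and 64, 56 and 56 in the wildtype channel. The Ret medians thus lay above the medians of the negative controls in both channels. They passed the 95th percentile by a small margin on all arrays in the wildtype channel, but on array 1 alone in the knock-out channel. Of the 10 spots, 2 were flagged as well above background in the knock-out channel of array 1, and 0 in the other channels and arrays.

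The log2 ratios of Ret were -0.073, -0.062 and -0.070, with a mean of -0.069 ± 0.0057 (SD, n = 3; limma, adjusted p = 0.711, 95% confidence interval -0.24 to 0.099). Each of these values is an average over 9 or 10 spots, and single Ret spots ranged from -0.22 to 0.18 on array 1. The mean ran from -0.30 with the log ratio of the scanner software to 0.026 with median centring in place of loess. A difference in Ret was therefore not detectable with this probe, and Ret was not shown to be equal in both genotypes.

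**Figure D2:**
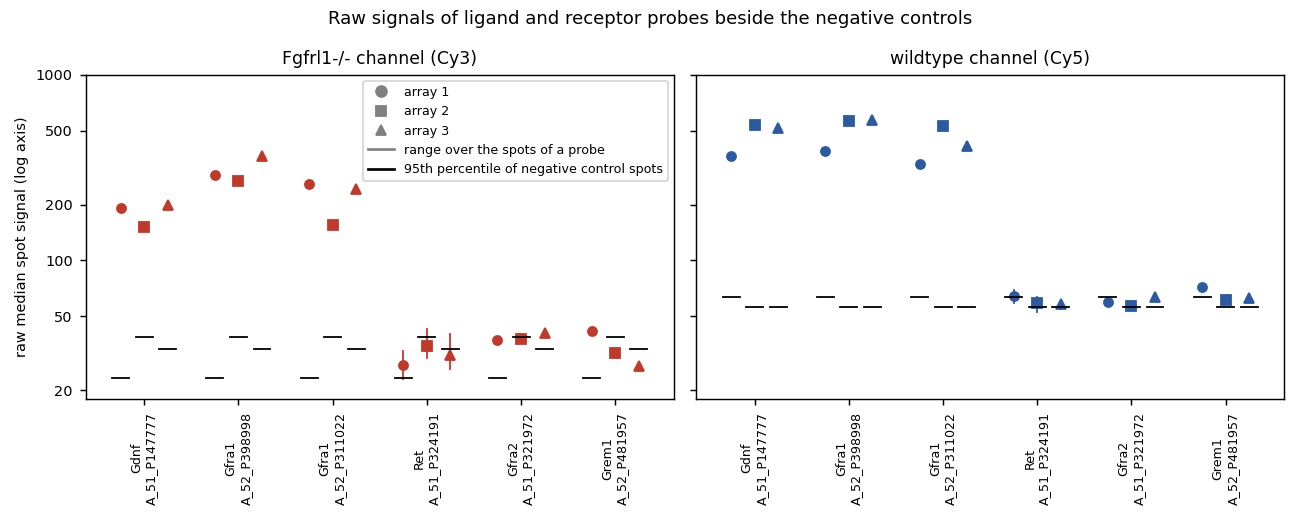
Raw median spot signal (vertical log axis) of the Gdnf, Gfra1, Ret, Gfra2 and Grem1 probes in the Fgfrl1-/- channel (left) and the wildtype channel (right), with 1 symbol per array. Vertical lines give the range over the 10 Ret spots and black bars the 95th percentile of the 153 negative control spots. Gdnf and Gfra1 lie far above these bars, and Ret, Gfra2 and Grem1 lie near them.

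Gfra1, the co-receptor of Gdnf, was measured by both of its probes. For the junction-spanning probe A_52_P311022, log2 levels were 8.09, 8.04 and 8.19 in the knock-out pools and 8.59, 8.65 and 8.43 in the wildtype pools, with no overlap between the groups. The log2 ratios of -0.49, -0.61 and -0.23 had a mean of -0.45 ± 0.19 (SD, n = 3), which did not pass the test (limma, adjusted p = 0.108, 95% confidence interval -0.69 to -0.21). For A_52_P398998, levels were 8.27, 8.74 and 8.71 against 8.84, 8.71 and 8.83, and the groups overlapped. Its log2 ratio was -0.56 on array 1 but 0.032 and -0.12 on arrays 2 and 3 (mean -0.22 ± 0.31, SD, n = 3; limma, adjusted p = 0.498). The 2 Gfra1 probes thus differed most on array 2, and neither passed the test over the 3 arrays. Without array 1, A_52_P311022 passed it with a mean of -0.42 (limma, adjusted p = 0.00611), whereas A_52_P398998 had a mean of -0.044 (limma, adjusted p = 0.753). With the slide as a fixed block, both passed, with means of -0.46 (limma, adjusted p = 0.00102) and -0.30 (limma, adjusted p = 0.0045), in a fit with 1 residual degree of freedom. These 2 settings called many probes of the whole array. Without array 1, 4172 of the 41174 probes passed downwards and 3494 upwards, and with the slide block 4649 and 5632. The main setting called 164 and 119.

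Gfra2 was near background. Its probe was well above background in the knock-out channel of 2 arrays and in the wildtype channel of 1 array. The log2 ratios of 0.23, 0.030 and -0.021 lay on both sides of 0, with a mean of 0.079 ± 0.13 (SD, n = 3; limma, adjusted p = 0.727).

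The comparison of the mesenchymal ligand with the ureteric receptor was made within each array. The log2 ratio of Gdnf minus that of Ret was -0.95, -0.59 and -0.74 on arrays 1, 2 and 3, with a mean of -0.76 ± 0.18 (SD, n = 3). The difference had the same direction on all arrays and kept it under 15 alternatives, between -0.97 and -0.62. An exact 2-sided sign-flip permutation test gave p = 0.25, the smallest value that 3 arrays allow, so the design cannot reach the threshold. Since the Ret probe was near the negative controls in both channels, this difference sets Gdnf beside a background signal. Against the measured co-receptor, the difference of Gdnf minus Gfra1 was -0.61 ± 0.13 for A_52_P398998 and -0.38 ± 0.30 for A_52_P311022 (SD, n = 3), negative on all arrays for both.

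The same difference was formed between Gdnf and all 17 other member probes. Gdnf was lower relative to the other probe on all 3 arrays in 15 of the 17 pairs, with means from -1.03 to -0.27 over all pairs. Of the other probes, 8 were not well above background throughout, and their pairs set Gdnf beside a background signal. Among the 9 pairs with a measured probe, Gdnf was lower on all arrays in 7. The 2 pairs without a uniform direction were those with the bright Slit2 probes. The lowest exact 2-sided p was 0.25, and 0.283 after Benjamini-Hochberg adjustment over the 17 pairs. All pairs share the Gdnf values and are not independent.

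**Figure D3:**
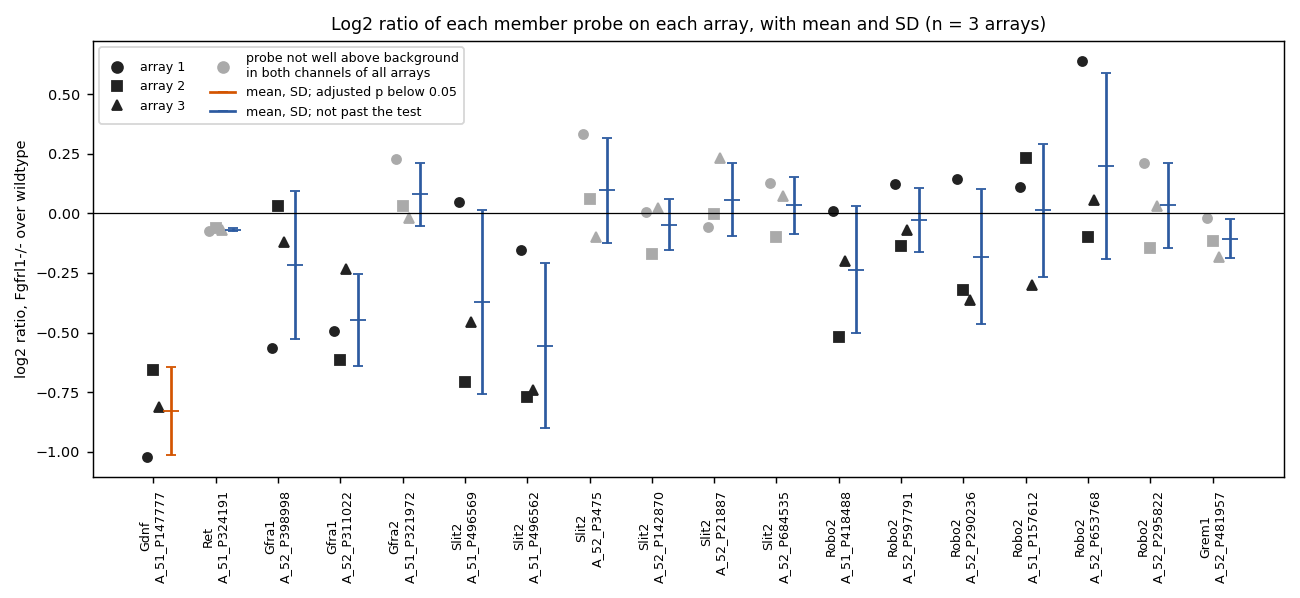
Log2 ratio of Fgfrl1-/- over wildtype (vertical axis) of each member probe (horizontal axis) on arrays 1, 2 and 3, with the mean and SD beside the points (n = 3). Grey points mark probes that missed the flag for a bright signal in some channel of some array. Gdnf passed the test with a mean of -0.83, and the other 17 probes did not.

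Slit2, the ligand on the restricting side, was bright in 2 of its 6 probes. For A_51_P496562, log2 levels were 10.21, 9.76 and 9.67 in the knock-out pools and 10.36, 10.53 and 10.41 in the wildtype pools, again with no overlap. The log2 ratio was -0.16 on array 1, and -0.77 and -0.74 on arrays 2 and 3, with a mean of -0.56 ± 0.35 (SD, n = 3; limma, adjusted p = 0.143). For A_51_P496569, levels were 11.26, 11.18 and 11.19 against 11.21, 11.89 and 11.65. The groups overlapped because of array 1, whose log2 ratio was 0.050, whereas arrays 2 and 3 gave -0.71 and -0.46 (mean -0.37 ± 0.39, SD, n = 3; limma, adjusted p = 0.32). Array 1 lay on another slide than arrays 2 and 3. On the slide of arrays 2 and 3 alone, the probes passed the test with means of -0.75 (limma, adjusted p = 3.4e-05) and -0.58 (limma, adjusted p = 0.000425). With array 1 left out in this way, 6 member probes passed the test downwards in place of 1, but so did 4172 in place of 164 probes of the whole array. The other 4 Slit2 probes, which were designed on cDNA clones, were near background and had means from -0.047 to 0.097. With the log ratio of the scanner software, these means ran from -0.67 for A_52_P142870 to 0.91 for A_52_P21887, and neither passed the test.

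Robo2, the receptor of Slit2, was measured by 5 of its 6 probes, and 0 of them passed the test in either direction, also at an unadjusted p below 0.05. Of these, A_51_P418488 was the brightest. Its log2 levels were 9.18, 9.19 and 9.22 in the knock-out pools and 9.17, 9.70 and 9.42 in the wildtype pools. The groups overlapped, and the wildtype pools varied more than the knock-out pools. The means of the 5 probes ranged from -0.24 to 0.20, and all 5 had log2 ratios on both sides of 0. The largest mean, that of A_52_P653768, came from array 1 with 0.64, while arrays 2 and 3 gave -0.10 and 0.054. Without array 1, A_51_P418488 and A_52_P290236 passed the test with means of -0.36 (limma, adjusted p = 0.0111) and -0.34 (limma, adjusted p = 0.00596). This rests on arrays 2 and 3 alone, which shared a slide. In that setting 4172 of the 41174 probes passed downwards, against 164 with all arrays.

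Grem1, the Bmp antagonist, was near background. Its probe was well above background in the knock-out channel of 1 array and in the wildtype channel of 1 array. The log2 ratios of -0.019, -0.11 and -0.18 gave a mean of -0.11 ± 0.082 (SD, n = 3; limma, adjusted p = 0.571). The mean depended on the processing, from -1.26 with the log ratio of the scanner software to 0.012 with median centring in place of loess.

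Over the 10 measured member probes, 3 were lower in the knock-out on all 3 arrays, namely Gdnf, 1 probe of Gfra1 and 1 of Slit2. The same 3 probes had levels that did not overlap between the genotypes. Of all 22824 probes measured in this way, 23.5% were lower on all 3 arrays and 8.83% had knock-out levels below all wildtype levels. The test called 0.67% of them lower and 0.517% higher, beside 1 and 0 of the 10 member probes. The median log2 ratio of the 10 probes was -0.23, beside 0.0060 over all measured probes, and probes of 1 gene are not independent of each other.

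The other genes of the pathway were taken from 6 lists by role. The lists were drawn up with earlier results of these data known. Their share of calls, set beside that of all genes, is therefore not a test. Of 67 listed genes, 66 had a named probe on the array, and each gene was read from its brightest probe. Of these, 6 were lower and 4 were higher in the knock-out (limma, adjusted p below 0.05), against 0.483% and 0.342% of all 27745 named genes or transcripts read in the same way. The sign of all 10 was the same under all 16 alternatives, and the number of alternatives under which a gene also passed the test ran from 4 for Foxc1 and Slit3 to 12 for Lhx1. The median log2 ratio of the 66 genes was -0.032, beside 0.0071 over all named genes.

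Genes listed as targets of Ret at the ureteric tip contributed 3 of the 6 lower genes, although Ret itself gave no usable level. Their RNA was read in whole rudiments, and the authors also count Etv4 among genes involved in Fgf signalling. Whether Ret signalling differed between the genotypes was not tested. Etv4, an ETS transcription factor induced by Ret, had log2 levels of 8.88, 8.93 and 8.69 in the knock-out pools and of 10.13, 9.67 and 9.85 in the wildtype pools. The groups did not overlap, and Etv4 fell by 2.07-fold (mean log2 ratio -1.05 ± 0.27, SD, n = 3; limma, adjusted p = 0.0416). Wnt11, a tip ligand that maintains Gdnf in the mesenchyme, had levels of 9.45, 9.45 and 9.40 against 10.07, 10.24 and 10.28 (mean log2 ratio -0.76 ± 0.13, SD, n = 3; limma, adjusted p = 0.0408). Cxcr4, a chemokine receptor, had a mean log2 ratio of -1.08 ± 0.21 (SD, n = 3; limma, adjusted p = 0.0346) and passed the test with both of its probes. The other 7 targets did not pass, among them the Etv4 relative Etv5 with -0.42 ± 0.23. Of the 10 targets, 8 had a negative mean, and the list median was -0.42, or -0.58 to -0.31 under the 16 alternatives. The list medians on arrays 1, 2 and 3 were -0.63, -0.33 and -0.34.

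Among 16 measured activators of Gdnf in the mesenchyme, 1 was lower and 0 were higher. Itga8, the integrin subunit through which nephronectin maintains Gdnf, had log2 levels of 10.43 to 10.72 in the knock-out pools and of 11.23 to 11.43 in the wildtype pools. These ranges were apart on all arrays, and the mean log2 ratio was -0.78 ± 0.057 (SD, n = 3; limma, adjusted p = 0.0346). A further Itga8 probe passed the test and the dimmest did not. Transcription factors that activate Gdnf did not pass, with a mean log2 ratio of -0.42 ± 0.31 for Eya1, -0.28 ± 0.18 for Six4, -0.080 ± 0.20 for Pax2 and -0.11 ± 0.34 for Sall1 (SD, n = 3). The Pax2 probe was dim, though flagged as well above background throughout. Its mean log2 level was 6.35 in the knock-out and 6.43 in the wildtype pools, beside 6.14 and 6.25 for Grem1. The integrin ligand Npnt had -0.10 ± 0.055. The median of the list was -0.057.

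Negative regulators of Gdnf or Ret moved in both directions, with 1 of 11 lower and 2 higher. Spry1, an intracellular antagonist of receptor tyrosine kinases that limits Ret signalling, had log2 levels of 10.74, 11.14 and 11.23 in the knock-out pools and of 11.84, 12.07 and 12.02 in the wildtype pools. The groups did not overlap, and the mean log2 ratio was -0.94 ± 0.15 (SD, n = 3; limma, adjusted p = 0.0346). Its relative Spry2 had -0.65 ± 0.35 (SD, n = 3) and did not pass (limma, adjusted p = 0.11). Foxc1, a forkhead factor that restricts the Gdnf domain, was higher with levels of 13.36, 14.00 and 13.92 against 12.52, 13.27 and 13.35. All knock-out pools lay above all wildtype pools by a narrow margin, and the mean log2 ratio was 0.71 ± 0.14 (SD, n = 3; limma, adjusted p = 0.0429). Slit3, a relative of Slit2, was higher with 0.57 ± 0.073 (SD, n = 3; limma, adjusted p = 0.0479), while its dimmer probe had 0.22 ± 0.055 and did not pass. With median centring in place of loess, Foxc1 had a mean of 0.28 (limma, adjusted p = 0.883) and Slit3 of 0.20 (limma, adjusted p = 0.942), so that neither passed. The other members of the list included Robo1 with 0.041 ± 0.28 and Bmp4 with -0.019 ± 0.049.

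Among 7 other ligands and receptors of the GDNF family, 0 were lower and 2 were higher. Gfra3, the co-receptor of artemin, had log2 levels of 10.07, 10.37 and 10.36 in the knock-out pools and of 9.28, 9.66 and 9.81 in the wildtype pools. The groups did not overlap, and the mean log2 ratio was 0.68 ± 0.12 (SD, n = 3; limma, adjusted p = 0.0429). Sdc3, a heparan sulfate proteoglycan that binds Gdnf, had 0.67 ± 0.091 (SD, n = 3; limma, adjusted p = 0.0419) in its brightest probe, whereas its other 2 probes had 0.14 ± 0.15 and -0.075 ± 0.071 and did not pass. With median centring, Gfra3 and Sdc3 each had a mean of 0.45 and did not pass (limma, adjusted p = 0.511 and 0.465). The related ligands Artn and Pspn were not well above background in the wildtype channel of any array.

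Of 11 regulators of Ret in the ureteric epithelium, 1 was lower and 0 were higher. Lhx1, a LIM homeobox factor, had log2 levels of 8.98, 9.01 and 8.97 in the knock-out pools and of 10.78, 10.72 and 10.61 in the wildtype pools. The genotypes were far apart, and Lhx1 was reduced 3.28-fold (mean log2 ratio -1.72 ± 0.082, SD, n = 3; limma, adjusted p = 0.00692). Pax8 had a mean log2 ratio of -0.91 ± 0.27 (SD, n = 3) and narrowly missed the threshold (limma, adjusted p = 0.0509). Lhx1 and Pax8 are also made by renal vesicles and stand in the marker list of that structure. Gata3, which acts on Ret in the duct, had 0.43 ± 0.14 (SD, n = 3). Of the 11 signal transducers of Ret, such as Shc1, Frs2 and Grb2, 0 passed the test in either direction, and 2 were lower and 2 higher at an unadjusted p below 0.05. Their median was 0.13, and it lay between -0.21 and 0.16 under the alternatives.

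**Figure D4:**
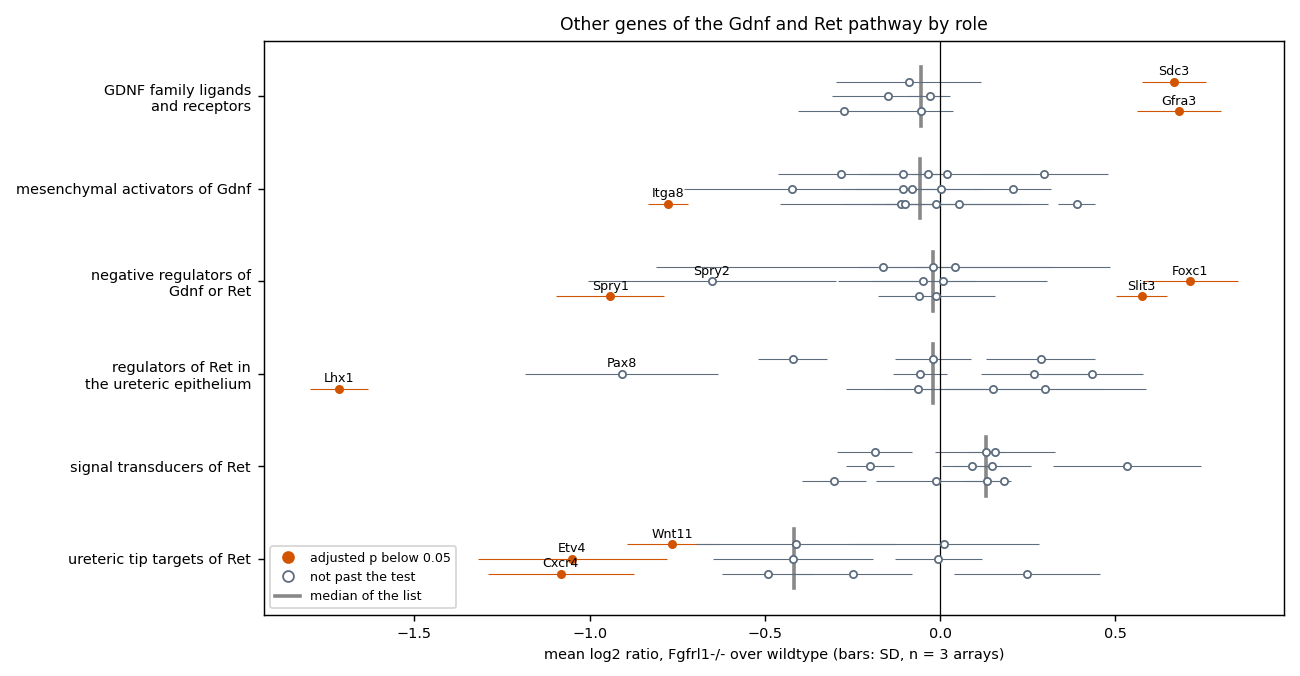
Mean log2 ratio of Fgfrl1-/- over wildtype (horizontal axis) of the other pathway genes, in 1 row per role, with SD bars (n = 3). Filled orange points passed the test and grey bars are list medians. The ureteric tip targets have the lowest median with -0.42, and 6 genes passed downwards and 4 upwards in all lists.

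Some facts of the whole series bear on these values. Fgfrl1 itself had log2 ratios of -1.21, -1.51 and -1.83 (mean -1.52 ± 0.31, SD, n = 3; limma, adjusted p = 0.0332), and whether its probe lies in the deleted part of the gene is not given in the sources used here. Log2 ratios of all probes correlated with 0.713 between arrays 2 and 3, which shared a slide and a software version. Between array 1 and these, the correlation was 0.106 and 0.222 (Pearson's r across probes, which are not independent).

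Markers of the cell types that make or receive Gdnf were read beside it. In the cap mesenchyme, 1 of 8 markers was lower and 7 of 8 had a negative mean, and the log2 of their summed level was 14.4 to 14.6 in the knock-out and 14.8 to 14.9 in the wildtype pools. The marker that passed was Cited1 (-0.78 ± 0.19), whereas Six2, which defines this population, had -0.046 ± 0.24. In the ureteric epithelium, 0 of 10 markers were lower and 1 was higher, Tcfcp2l1 (now Tfcp2l1; 0.86 ± 0.093), with a summed level of 15.3 to 15.7 against 15.0 to 15.2. Renal vesicle markers were lower in 5 of 8 cases (Wnt4, Lhx1, Fgf8, Dll1 and Bmp2), with a summed level of 12.4 to 12.8 against 13.4 to 13.7. Stromal markers were higher in 2 of 8 cases (Pdgfra and Col1a1), with 16.7 to 17.1 against 16.2 in the wildtype pools. The brightest markers of a list weigh most in such a sum. Of the 8 stromal markers, 1 had a negative mean, Tcf21 with -0.48 ± 0.26 (SD, n = 3; limma, adjusted p = 0.127), and it was lower on all 3 arrays. With median centring, Tcfcp2l1, Pdgfra and Col1a1 had means of 0.59, 0.68 and 0.29 and did not pass (limma, adjusted p = 0.297, 0.213 and 0.852). These shifts on the arrays accompanied the reduction of Gdnf, Etv4, Wnt11 and Lhx1 and the increase of Foxc1 and Slit3, and their part in these results was not tested. The paper reports that its qPCR did not bear out the increase of Tcfcp2l1 and Col1a1 seen on the arrays. Pdgfra, Foxc1 and Slit3 were not among the genes it measured by qPCR.

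Markers of other cells that could be present did not pass the test. This held for 8 endothelial, 10 neural crest, 5 steroidogenic, 6 erythroid and 6 macrophage genes, of which 0 passed in either direction with limma. At an unadjusted p below 0.05, 2 of these 35 genes were lower and 5 were higher, against 8.2% and 7.69% of all probes. All 5 higher genes were among the 6 macrophage markers. Neural crest cells use Ret as well, and their markers had a summed level of 10.9 to 11.2 in the knock-out and 11.3 to 11.5 in the wildtype pools. The 6 macrophage markers all had a positive mean, with a summed level of 10.8 to 11.3 against 10.4 to 10.7.

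The genes with a pattern most like that of Gdnf were found by the Euclidean distance between the log2 ratios on the 3 arrays, among probes flagged as bright throughout, with 1 probe per gene. The nearest was Rem1, at a distance of 0.074 with log2 ratios of -1.09, -0.66 and -0.79. It was followed by Tmem59l (0.080), Ufm1 (0.089), Cited1 (0.096) and the transcript CJ042244 (0.11). With 3 arrays, such a likeness describes these samples only.

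**Figure D5:**
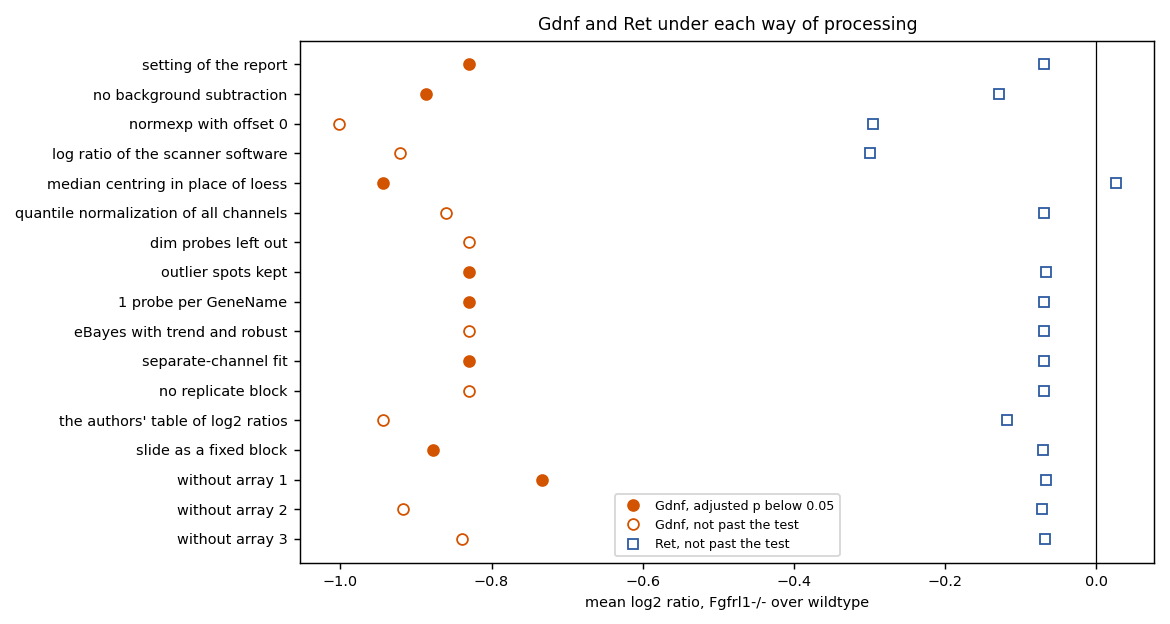
Mean log2 ratio of Fgfrl1-/- over wildtype (horizontal axis) of Gdnf (orange circles) and Ret (blue squares) under the setting of the report and each alternative (vertical axis). Filled symbols passed the test. Gdnf ranged from -1.0 to -0.73 under the alternatives, and Ret from -0.30 to 0.026.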

How the data were processed

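The authors extracted the scans with Agilent Feature Extraction (version 10 per the labels, versions 9.5.3.1 and 10.5.1.1 per the file headers) and deposited spot and background intensities, log10 ratios and a table of log2 ratios, which correlate with the knock-out over wildtype ratio of the scans at r = 0.704 to 0.717 and were taken to have that direction. The steps behind that table and its centring are not given in the sources used here (column medians -0.018, 0.00 and 0.003). Median intensities of 43379 spots per array were corrected with normexp (offset 50) and normalized by loess in limma 3.58.1 (R 4.3.3). Outlier spots were left out and spots of a probe were averaged. The 41174 probes were fitted with lmFit (intercept only) and eBayes and tested 2-sided with Benjamini-Hochberg adjustment, so that the pools of an array were paired. Levels per pool were scaled with Aquantile. A probe with several spots counted as well above background where over 0.5 of its spots were flagged. Gene names came from the file of array 1, and all spots of the other files matched by probe and position. The test was checked on simulated data.

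The arrays are replicates by their labels, with separate pools, and 3 arrays limit the precision of every value. The members and lists were chosen with earlier results of these data known. Named were all member probes, Fgfrl1, listed genes that passed the test or were at least 1.5-fold apart, markers that passed, and the 5 genes nearest to Gdnf. Other list genes given with a value were chosen after their values were seen. The 5 genes nearest to Ret, also part of this rule, were not drawn because the Ret probe was near background. The alternatives were other background corrections, scalings, filters and variance models, the channels unpaired, the slide as a block, the deposited log2 table, and each array left out. A few members of these lists are not reported here by name.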

Additional observations from a re-analysis of the deposited data

How the results depend on the processing

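The counts of calls depended on the processing. The main setting called 164 probes lower and 119 higher, 1 member probe lower and 0 higher, and 6 pathway genes lower and 4 higher. Without background subtraction, 72 probes and 0 pathway genes were higher. With a normexp offset of 0 and with the log ratio of the scanner software, all of these counts were 0 in limma (4852 and 6118 probes at an unadjusted p below 0.05). Median centring gave 91 probes lower, 2 higher and 0 pathway genes higher. Quantile normalization gave 57 and 19 probes, 0 member probes lower, and 3 and 0 pathway genes. With dim probes left out, these counts were 34, 7, 0, 1 and 0, with trend and robust variances 6, 0, 0, 1 and 0 (5551 probes at an unadjusted p below 0.05), and with the log2 ratios of the authors they were 32, 4, 0, 1 and 0. With the replicate block removed, so that the channels of an array were unpaired, they were 19, 2, 0, 2 and 0, and Gdnf kept its mean of -0.83 (limma, adjusted p = 0.0898). The separate-channel fit gave 224 probes and 2 pathway genes higher. With the slide as a fixed block, which leaves 1 residual degree of freedom, 4649 probes were lower and 5632 higher, with 5 member probes lower, 1 higher, and 19 and 14 pathway genes. The slide as a random block could not be fitted. When each array was left out in turn, the counts of probes ranged from 0 to 4172 lower and from 0 to 3494 higher, of member probes lower from 0 to 6, and of pathway genes from 0 to 16 lower and from 0 to 10 higher. The high counts came without array 1, whereas without array 2 or array 3 limma called 0 probes (3712 and 3141 at an unadjusted p below 0.05). The cause of these changes was not tested.

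The difference of Gdnf minus Ret could be formed under 15 alternatives and kept its direction under all of them. Since the Ret probe was near background, this direction mainly repeats that of Gdnf and says little of Ret. For Gdnf, the range of adjusted p over its 16 alternatives was 3.4e-06 to 0.471. Probes near background or with means near 0 changed sign. With the log ratio of the scanner software, Grem1 had -1.26, Ret -0.30, Gfra2 0.54, Slit2 A_52_P142870 -0.67, Slit2 A_52_P21887 0.91 and Robo2 A_52_P295822 0.89, and these did not pass. Median centring turned Ret to 0.026, Grem1 to 0.012, Slit2 A_52_P142870 to 0.089 and Robo2 A_51_P157612 to -0.033. Slit2 A_52_P684535 turned to -0.051 without background subtraction and to -0.064 in the authors' table, and Robo2 A_52_P597791 to 0.0083 with the slide as a fixed block. When each array was left out in turn, the mean of Slit2 A_52_P3475 ranged from -0.021 to 0.20, of Slit2 A_52_P142870 from -0.083 to 0.015, of Slit2 A_52_P21887 from -0.030 to 0.12 and of Slit2 A_52_P684535 from -0.014 to 0.10. In the same way, Robo2 A_52_P597791 ranged from -0.10 to 0.025, Robo2 A_51_P157612 from -0.096 to 0.17, Robo2 A_52_P653768 from -0.024 to 0.35 and Robo2 A_52_P295822 from -0.056 to 0.12. Signal over background limits what can be said of Ret, Gfra2 and Grem1.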
